A study of Mus musculus with 6 samples.

Results

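The genes described here encode the vascular endothelial growth factor (VEGF) system: the ligands Vegfa, Vegfb, Vegfc and Pgf, the tyrosine kinase receptors Flt1, Kdr and Flt4, and the neuropilins Nrp1 and Nrp2. They were chosen by name, and all 9 were found among the 46078 gene identifiers of the count tables and among the 15554 genes with enough counts to be tested. Tissue came from wild type C57BL/6J mice, aged 3 months by the labels, 7 weeks after a stroke made by occluding the distal middle cerebral artery and then exposing the mice to low oxygen. Bulk RNA sequencing covered 3 libraries of dissected stroke infarcts and 3 of the matching contralateral cortex, so the comparison answers how the chronic infarct differs from cortex of the uninjured side. Both groups shared the strain, the surgery and the hypoxia, and no drug treatment is named in the labels. The contralateral libraries are therefore cortex of mice that had a stroke, not of mice without surgery. The labels do not say which libraries came from the same mouse or that each came from a different mouse, so the p-values measure the spread between these 6 libraries.

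VEGF-A is the main growth and permeability factor for blood vessel endothelium and acts through KDR (VEGFR2), while FLT1 (VEGFR1) binds VEGF-A tightly with weak kinase activity and, as a secreted form, holds it away from KDR. VEGF-B and PlGF (the product of Pgf) bind FLT1, and VEGF-C, after proteolytic maturation, binds FLT4 (VEGFR3) and KDR and is the main growth factor of lymphatic vessels. The neuropilins are co-receptors for VEGFs and for class 3 semaphorins, and besides endothelium they are made by neurons, macrophages and mesenchymal cells.

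Between 11943570 and 19933962 counts per library fell on genes, 65.7% to 73.4% of the totals that include unassigned reads. The tissue labels were set beside marker genes. Here higher and lower mean an adjusted p below 0.05 and a more than 2-fold change (edgeR quasi-likelihood test). Of all tested genes 25.7% were higher and 20.9% lower by this rule. Of the 10 neuronal markers all 10 were lower in infarcts, with a summed level of 735 to 2160.1 CPM (counts scaled to a common library size) against 10649.5 to 11721.0 in contralateral cortex. Of the 20 markers of vascular endothelium 10 were higher and 1 lower, with a summed level of 1012.9 to 1461.1 CPM in infarcts and 576 to 614 in contralateral cortex, and no endothelial marker was at 0 in either group. Macrophage and microglial markers were higher in 9 of 10 cases (1874.4 to 2529.8 against 237 to 315 CPM), and fibroblast markers in 8 of 8 tested (7107.1 to 8902.1 against 151 to 192 CPM). Pericyte markers were higher in 5 of 9 tested (1014.8 to 1425.5 against 295 to 372 CPM). Of 9 astrocyte markers 2 were higher and 1 lower (2 lower without contralateral library 1, contralateral library 2 or infarct 3), and their summed level was 5414.4 to 7991.3 against 13927.8 to 14801.8 CPM. The glutamate transporter Slc1a2 made up most of that sum in contralateral cortex but not in infarcts (2932.7 ± 859 in infarcts against 12297.4 ± 624 CPM). Gfap (1080.4 ± 230.4 against 38.6 ± 9.61 CPM) and Aqp4 (1031.8 ± 166 against 323 ± 3.57 CPM) were the 2 that rose more than 2-fold. With no fold threshold, 4 astrocyte markers were higher and 4 lower. Gja1 (log2 0.59) and Sox9 (0.64) were among the higher, and Aldoc (−0.99), Aldh1l1 (−0.49) and Slc4a4 (−0.45) among the lower. Oligodendrocyte markers were higher in 4 of 8 (4349.0 to 6985.9 against 2182.7 to 2605.9 CPM), and markers of choroid plexus and ependyma in 4 of 5 tested, at low levels (24.4 to 41 against 7.47 to 9.69 CPM). In bulk tissue, more or fewer cells of a type and more or less RNA per cell cannot be told apart, and the part these cell types have in the values below was not tested.

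The upstream sequences of Flt1 and Kdr are shown because these receptors, both typical endothelial genes, differed in their response. They are RefSeq sequences of GRCm38.p6, 240 bases each, read 5′ to 3′ on the gene's own strand from 250 to 11 bases before the RefSeq start, and neither window contains annotated exon bases. Flt1 lies on the minus strand (window chr5:147726022-147726261) and so does Kdr (window chr5:75978466-75978705). Capitals mark matches, on either strand, to the hypoxia response core (ACGTG or GCGTG), the cyclic AMP response element (TGACGTCA), the TATA box (TATAAA), the GC box (GGGCGG) and the ETS core (CCGGAA).
Flt1: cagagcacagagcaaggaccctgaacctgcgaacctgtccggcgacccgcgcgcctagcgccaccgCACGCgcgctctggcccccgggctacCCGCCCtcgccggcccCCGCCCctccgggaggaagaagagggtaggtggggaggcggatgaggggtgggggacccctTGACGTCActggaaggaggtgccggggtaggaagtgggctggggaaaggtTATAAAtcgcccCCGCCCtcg
Kdr: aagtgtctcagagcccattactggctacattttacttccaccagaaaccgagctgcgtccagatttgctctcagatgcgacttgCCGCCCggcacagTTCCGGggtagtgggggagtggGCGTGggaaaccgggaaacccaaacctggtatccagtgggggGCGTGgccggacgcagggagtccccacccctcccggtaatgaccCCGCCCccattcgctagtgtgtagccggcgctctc

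The Flt1 window held 1 cyclic AMP response element, which begins 81 bases upstream of the start, and 1 TATA box 31 bases upstream, while the Kdr window held neither. The Kdr window held 1 ETS core and 2 hypoxia response cores against 0 and 1 in the Flt1 window. Among 32851 promoter windows of the same length, 1.44% held the cyclic AMP response element, 12.1% the TATA box, 11.2% the ETS core, 31.3% the GC box and 37.4% the hypoxia response core. These are letter matches only, and no factor binding was measured.

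Of the 9 genes, 6 were higher in infarcts at an adjusted p below 0.05 and a more than 2-fold change (edgeR quasi-likelihood test, adjusted over all 15554 genes): Vegfc, Pgf, Kdr, Flt4, Nrp1 and Nrp2. None was called lower, and Vegfa and Vegfb passed the adjusted p in the lower direction with less than a 2-fold change. Across all tested genes 25.7% were called higher and 20.9% lower, and by the adjusted p alone 34.2% were higher and 30.8% lower. The infarct values lay wholly above the contralateral values for 6 of the 9 genes and wholly below for 1, against 37.6% and 34.7% of all tested genes. The median log2 fold change was 2.43 over the 9 genes and 0.03 over all tested genes. The plot of the 9 genes by library shows each value.

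**Figure D1:**
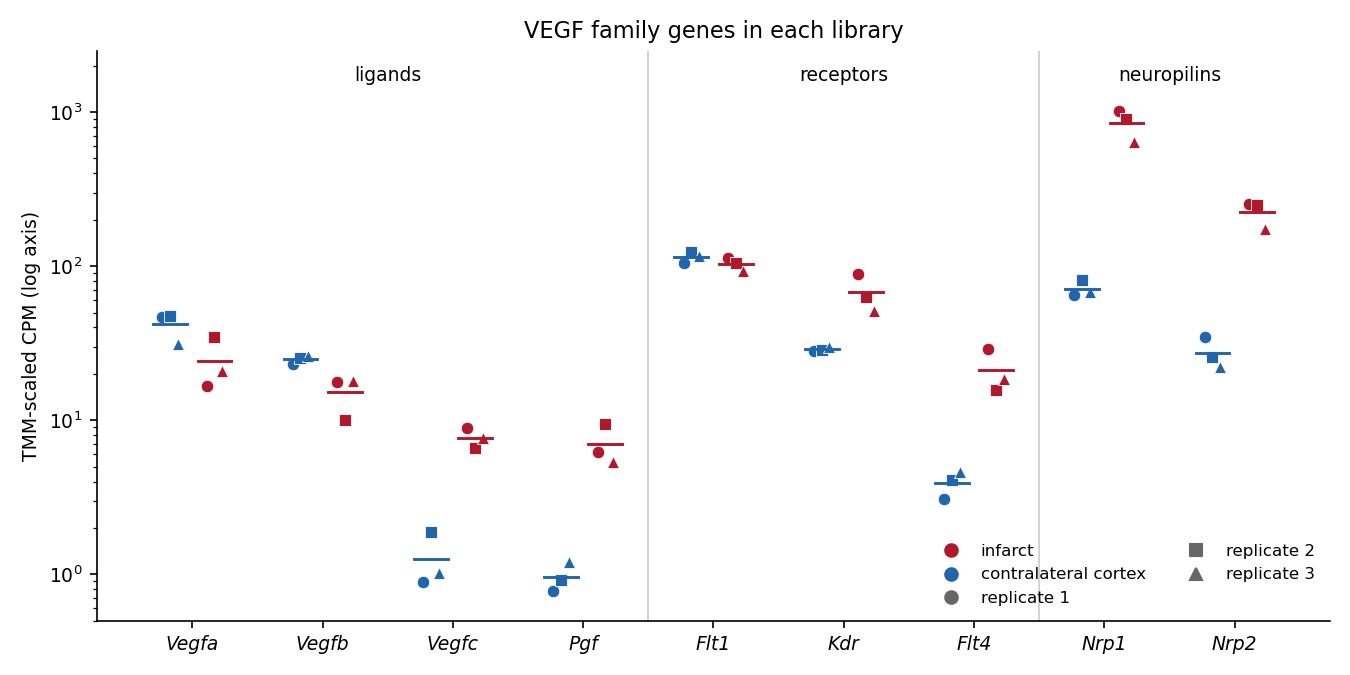
TMM-scaled CPM (log axis) of the 4 ligands, 3 receptors and 2 neuropilins in each of the 6 libraries, with infarcts in red and contralateral cortex in blue. Points are libraries, marked by replicate number, and horizontal bars are the means of 3. Nrp1 rises from 71.4 to 854 CPM on average, the values of Flt1 and Vegfa overlap between the regions, and Vegfc and Pgf are near 1 CPM in contralateral cortex.

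The fitted changes of the ligands differed in direction. Vegfa and Vegfb, the more abundant ligands of the contralateral cortex, fell by less than 2-fold and were not called lower. Vegfc and Pgf rose from near 1 CPM and were called higher. Vegfa (chr17:46016993-46032369, minus strand, GRCm38) was read at 16.6, 34.7 and 21 CPM in the 3 infarcts and at 46.9, 47.8 and 31.4 CPM in contralateral cortex. The regions overlapped, because infarct 2 (34.7 CPM) lay above contralateral library 3 (31.4 CPM). The fitted log2 fold change was −0.80 (SE 0.28, 95% interval −1.45 to −0.16, adjusted p = 0.0318), a level of 24.1 ± 9.41 against 42 ± 9.23 CPM (SD, n = 3). Without infarct 2 the change was −1.14 (adjusted p = 0.00392) and passed the 2-fold threshold. With library totals as the scale the adjusted p was 0.113, and it was 0.0759, 0.0764, 0.098 and 0.106 without infarct 1, infarct 3, contralateral library 1 and contralateral library 2.

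Vegfb (chr19:6982473-6987651, minus strand) encodes a FLT1 ligand linked to endothelial and neuronal survival. Its infarct values were 17.7, 10.1 and 17.9 CPM, all below the 23.1, 25.3 and 26.1 CPM of contralateral cortex, and the lowest infarct was the library with the highest Vegfa. The log2 fold change was −0.70 (SE 0.23, 95% interval −1.22 to −0.19, adjusted p = 0.021). The adjusted p was 0.0507 without infarct 2, 0.0595 without contralateral library 2, 0.0629 without contralateral library 3 and 0.0742 with library totals as the scale.

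Vegfc (chr8:54077606-54187096, plus strand) was read at 8.84, 6.61 and 7.71 CPM in infarcts against 0.888, 1.89 and 1.02 CPM. The infarct values rest on 90 to 113 counts per library and the contralateral values on 11 to 29. Vegfc rose 6.07-fold (log2 2.60, SE 0.34, 95% interval 1.85 to 3.35, adjusted p = 9.57e-05). Pgf (chr12:85166635-85177790, minus strand) was read at 6.21, 9.4 and 5.39 CPM in infarcts against 0.784, 0.912 and 1.2 CPM, from 78 to 128 and 13 to 15 counts. It rose 7.35-fold (log2 2.88, SE 0.34, 95% interval 2.11 to 3.64, adjusted p = 5.56e-05). For both ligands the lowest infarct was above the highest contralateral library.

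The 3 receptors responded to different degrees, in the order Flt4, Kdr, Flt1. Flt1 (chr5:147561604-147726011, minus strand) was read at 113, 105 and 93.5 CPM in infarcts and at 105, 123 and 116 CPM in contralateral cortex, with overlapping regions. The log2 fold change was −0.14 (SE 0.14, adjusted p = 0.384), and with library totals as the scale it changed sign to 0.06 (adjusted p = 0.708). Its 95% interval, −0.46 to 0.17, corresponds to 0.729 to 1.12 times the contralateral level, so a 2-fold change in either direction lies outside it. The counts are per gene, and the membrane and secreted forms of FLT1 were not separated.

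Kdr (chr5:75932827-75978458, minus strand) encodes the main signalling receptor for VEGF-A. It was read at 88.3, 63.4 and 51.3 CPM in infarcts against 28.3, 28.5 and 29.9 CPM, with every infarct above every contralateral library. Kdr rose 2.34-fold (log2 1.23, SE 0.20, 95% interval 0.77 to 1.68, adjusted p = 4.78e-04). The interval reaches below a 2-fold change, and a test against that threshold itself (glmTreat) gave an adjusted p of 0.121. The SD was 0.883 CPM over the contralateral libraries and 18.9 CPM over the infarcts.

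Flt4 (chr11:49609263-49652739, plus strand), the VEGF-C receptor, was read at 29.2, 15.6 and 18.4 CPM in infarcts against 3.08, 4.1 and 4.61 CPM. It rose 5.39-fold (log2 2.43, SE 0.28, 95% interval 1.79 to 3.07, adjusted p = 4.99e-05). Among the infarcts, infarct 1 had the highest value of all 3 receptors, and infarct 3 had the lowest value of Flt1 and Kdr but not of Flt4.

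The neuropilins rose most. Nrp1 (chr8:128358604-128503363, plus strand), a co-receptor of KDR for VEGF-A and of plexins for semaphorin 3A, was read at 1015.7, 902 and 644 CPM in infarcts against 64.8, 81.6 and 67.6 CPM. This was a 12-fold rise (log2 3.58, SE 0.22, 95% interval 3.09 to 4.07, adjusted p = 8.27e-07), the largest of the 9 genes. Nrp2 (chr1:62703285-62818695, plus strand), which pairs with FLT4 for VEGF-C and with plexins for semaphorin 3F, was read at 254, 248 and 175 CPM against 34.5, 25.6 and 22.1 CPM. It rose 8.21-fold (log2 3.04, SE 0.22, 95% interval 2.54 to 3.54, adjusted p = 2.40e-06). Both neuropilins were lowest in infarct 3 among the infarcts, and both stood far above the spread within either region.

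Overlapping annotation touched only the neuropilins. The exons of Nrp1 share 80 bases (0.818% of its exon length) with Mir1903, which had 0 counts in all 6 libraries. The introns of Nrp2 contain Gm29083, an antisense gene with 0 to 4 counts, and Gm37121, a gene on the same strand with 7 to 89 counts, and neither shares exon bases with Nrp2.

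**Figure D2:**
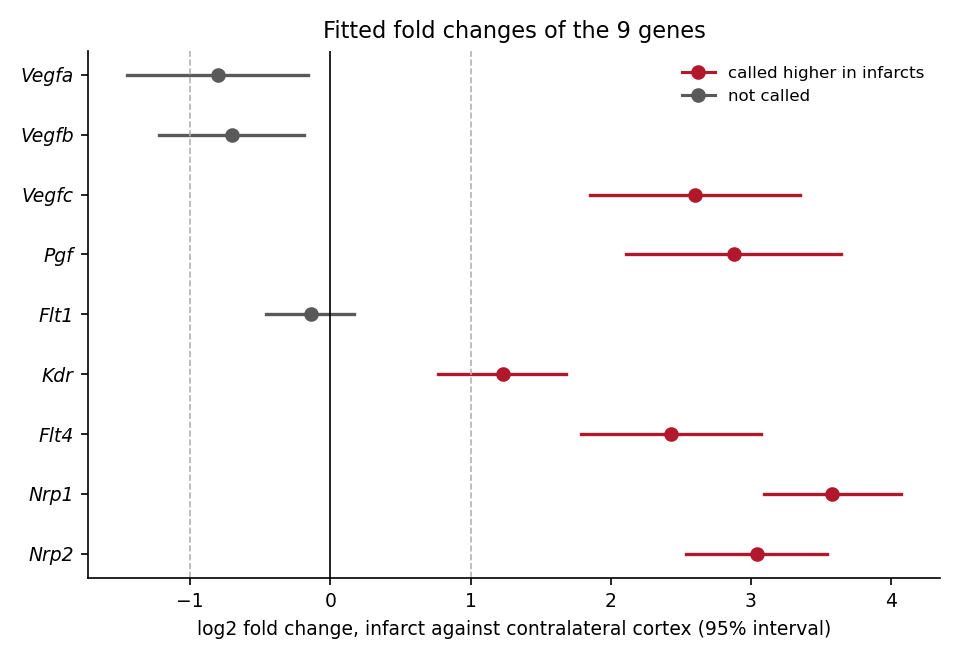
Fitted log2 fold change of each gene in infarct against contralateral cortex (points) with its 95% interval (lines), with dashed lines at a 2-fold change. Red marks the 6 genes called higher, and the interval of Flt1 (−0.46 to 0.17) includes 0, its sign changing to 0.06 with library totals as the scale.

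Ratios of 2 genes within a library do not depend on how libraries are scaled, and 8 pairs were compared. Counts of Flt1 were 3.73, 4.31 and 3.89 times those of Kdr in contralateral cortex and 1.28, 1.66 and 1.82 times in infarcts. The Flt1 to Kdr ratio was thus 2.53-fold lower in infarcts (difference of mean log2 ratios −1.34), with no overlap between regions. The Flt1 to Flt4 ratio went from 34.2, 30.0 and 25.2 to 3.88, 6.72 and 5.09 (difference −2.53), and the Kdr to Flt4 ratio from 9.17, 6.95 and 6.48 to 3.03, 4.06 and 2.8 (difference −1.20). The 3 receptors therefore changed unequally within the same libraries.

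Among the ligands, counts of Vegfa were 52.8, 25.3 and 30.9 times those of Vegfc in contralateral cortex and 1.88, 5.24 and 2.72 times in infarcts (difference −3.53). Vegfa against Pgf went from 59.9, 52.4 and 26.2 times to 2.68, 3.69 and 3.89 times (difference −3.69). The Pgf to Vegfb ratio, of 2 ligands that bind FLT1 alone among the 3 receptors, went from 0.0339, 0.036 and 0.0459 to 0.351, 0.934 and 0.3 (difference 3.59). The Vegfa to Vegfb ratio overlapped between regions, at 0.941, 3.45 and 1.17 in infarcts and 2.03, 1.89 and 1.2 in contralateral cortex (difference −0.09, two-sided exact permutation p = 0.9). Single libraries decided this difference, which was −0.67 without infarct 2, −0.33 without contralateral library 3, 0.11 without infarct 3 and 0.27 without infarct 1.

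The Nrp1 to Nrp2 ratio was 4, 3.64 and 3.68 in infarcts against 1.88, 3.19 and 3.07 (difference 0.51). The lowest contralateral ratio was that of library 1, and without this library the difference was 0.27. For 7 of the 8 pairs the regions did not overlap, and each then had a two-sided exact permutation p of 0.1, the smallest that 3 libraries against 3 can give (0.114 adjusted over the 8 pairs by Benjamini-Hochberg). The share of all gene pairs whose regions separate was not computed. Of single tested genes, 37.6% had infarct values wholly above the contralateral values and 34.7% wholly below. Ratios of counts carry each gene's length, which cancels in the difference between regions.

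**Figure D3:**
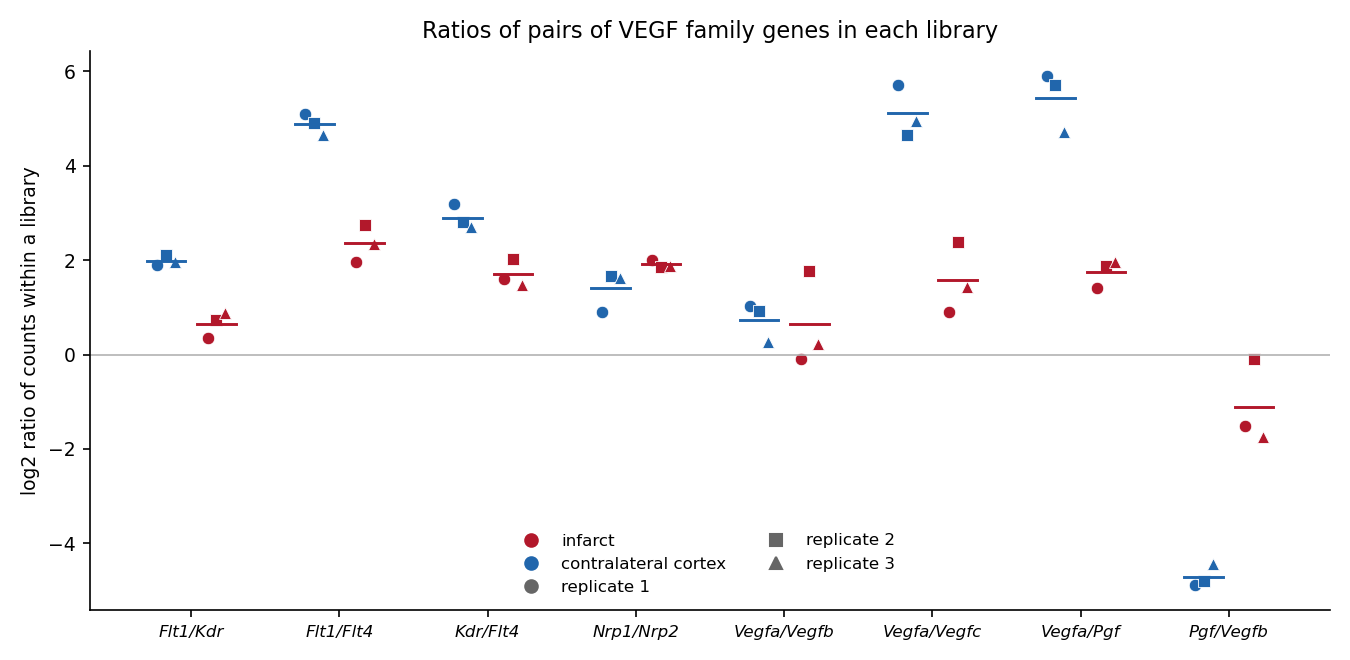
Log2 ratio of the counts of 2 genes within each library, infarcts in red and contralateral cortex in blue, with bars at the means of 3 libraries. The regions are apart for 7 pairs and overlap for Vegfa/Vegfb, and the Flt1/Kdr ratio is lower in every infarct.

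Because most of these receptors mark endothelium, each gene was set beside the mean log2 CPM of the 20 endothelial markers of the same library. That mean was 4.90, 4.64 and 4.54 in infarcts and 3.80, 3.73 and 3.82 in contralateral cortex, a difference of 0.91. Flt1 stood 1.92, 2.08 and 2.01 above the markers in infarcts and 2.92, 3.21 and 3.04 above them in contralateral cortex (difference −1.06), so it was lower beside endothelial markers although its own level did not pass the test. Kdr stood 1.57, 1.35 and 1.14 above the markers against 1.02, 1.11 and 1.09 (difference 0.28). The difference of Kdr was 0.17 without infarct 1 and 0.15 with the summed level of the markers as the reference. With Pecam1 and Cdh5 alone as the reference, the difference of Kdr changed sign to −0.68 and that of Flt1 was −2.02.

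Flt4 exceeded the rise of the endothelial markers by 1.47, Vegfc by 1.74, Pgf by 1.89, Nrp2 by 2.14 and Nrp1 by 2.65 on the log2 scale, and each kept its direction with Pecam1 and Cdh5 alone (0.51 to 1.69). Vegfa and Vegfb were lower by −1.76 and −1.66. The regions did not overlap for any of the 9 genes on this scale, with the exact permutation p at its smallest possible value of 0.1 for each. The reference itself differed between regions by 0.91, so subtracting it shifts every gene. On their own levels Vegfa and Flt1 overlapped between regions. The share of all genes whose regions separate on this scale was not computed. The reference is a description, since the markers differed among themselves: Cdh5, the adhesion protein of endothelial junctions, rose (log2 2.06, SE 0.18), Ptprb, a vascular phosphatase, was at 0.37 (adjusted p = 0.133), and Mfsd2a, a lipid transporter of the blood-brain barrier, fell by 1.55.

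**Figure D4:**
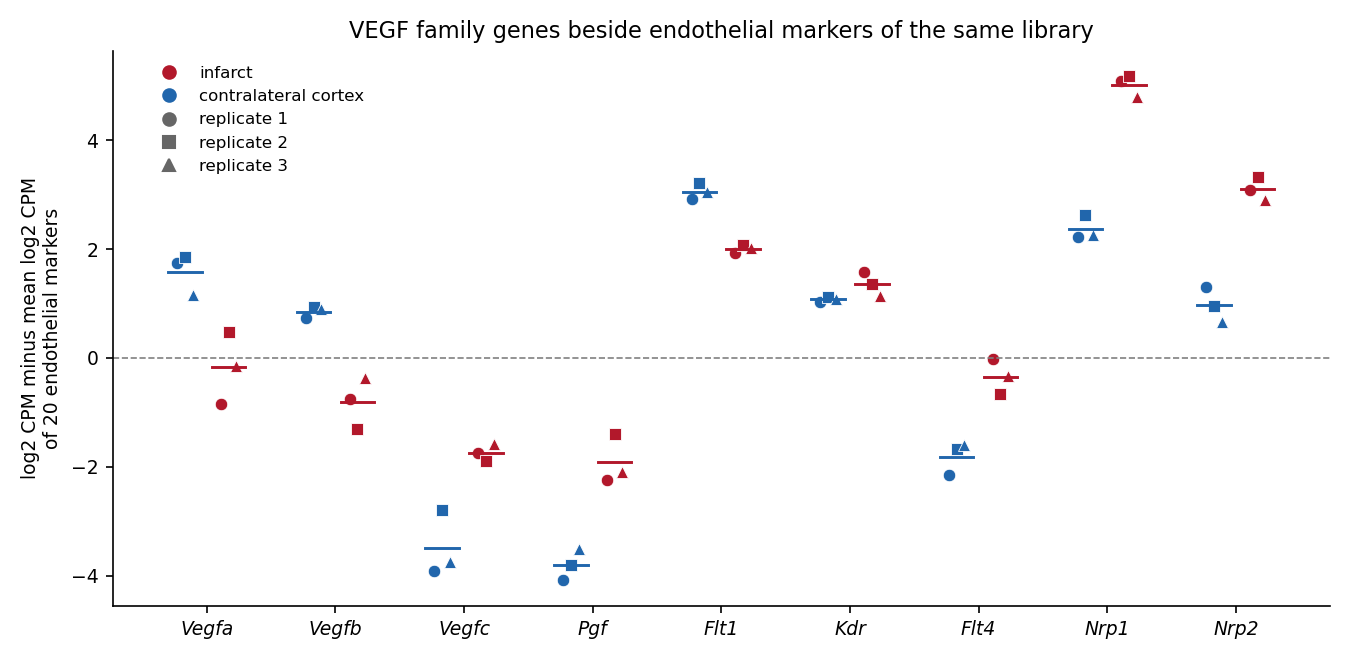
Log2 CPM of each gene minus the mean log2 CPM of 20 endothelial markers in the same library (dashed line at 0), infarcts in red and contralateral cortex in blue, with bars at the means of 3. Flt1 is lower in every infarct by this measure, Kdr is shifted by 0.28 (−0.68 with Pecam1 and Cdh5 alone), and the neuropilins by 2.65 and 2.14 (1.69 and 1.18 with that pair of markers).

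Levels were compared between genes only per length, as CPM per kilobase of merged exons. In contralateral cortex the order was Vegfb (15.5), Vegfa (9.81), Flt1 (8.5), Nrp1 (7.29), Kdr (3.2), Nrp2 (2.31), Vegfc (0.516), Flt4 (0.478) and Pgf (0.332). Vegfa overlapped Flt1, Flt1 overlapped Nrp1, and Vegfc, Flt4 and Pgf overlapped their neighbours. In infarcts Nrp1 (87.3) and Nrp2 (19.1) led without overlapping the next gene, followed by Vegfb (9.49), Flt1 (7.69), Kdr (7.5) and Vegfa (5.62), which overlapped their neighbours in turn, and then by Vegfc (3.15), Flt4 (2.56) and Pgf (2.41), which also overlapped. Measured by the longest transcript instead, Nrp1 took place 1 in contralateral cortex and Vegfb place 2.

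By these levels per length the makeup of each family shifted. Flt1 was 69.8 ± 1.33% of the summed receptor level in contralateral cortex and 44 ± 4.65% in infarcts, Kdr 26.3 ± 1.46% and 41.8 ± 3.41%, and Flt4 3.9 ± 0.59% and 14.2 ± 2.54% (SD, n = 3). These shares and the summed levels depend on the length used. Per kilobase of the longest transcript, Flt1 was at 16.7 CPM in contralateral cortex and 15.1 in infarcts, Kdr at 4.88 and 11.4, and Flt4 at 0.629 and 3.37. The summed ligand level covered Vegfa, Vegfb, Vegfc and Pgf, and left out Vegfd (3.1 ± 1.47 CPM in contralateral cortex and 4.25 ± 1.49 in infarcts). Of this sum, Vegfc was 1.95 ± 0.709% and then 15.2 ± 2.12%, and Pgf 1.28 ± 0.354% and then 11.7 ± 3.78%. The summed neuropilin level was 9.61 ± 0.862 CPM per kilobase in contralateral cortex and 106 ± 23 in infarcts. Nrp1 made up 75.9 ± 5.61% of it in contralateral cortex and 82 ± 0.757% in infarcts.

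For each gene, the 3 genes with the most similar pattern were found by Pearson's r of log2 CPM over the 6 libraries, among 9668 genes with a mean of at least 10 CPM. The points share 2 regions, so any pair of genes that rose strongly is alike by this measure, and 833 genes reached an r of 0.99 with Nrp1 and 499 with Nrp2. The closest to Nrp1 were Edem1, Wnk1 and Tor1aip2, and to Nrp2 Lgals8, Pigv and Fat2. With Kdr they included Ildr2 and Metap2, and with Flt4 they were Slc43a2, Cdc42se1 and Notch3. Those of Flt1 were Cltc (0.9861), Pik3ca (0.9843) and Sap30bp (0.9780), and no gene reached 0.99 with Flt1. Vegfc was closest to Fam53b, Sun2 and Pard3, Pgf to B4galt4, Adamts1 and Bcl6, Vegfa to Dcun1d3, Cramp1l and 5530601H04Rik, and Vegfb to Btbd2, Igf1r and Tnfrsf19. The rs of these closest genes ran from 0.9780 to 0.9999.

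The wider pathway was followed in 10 lists, read against the background of 25.7% called higher and 20.9% called lower. Downstream of the receptors, 13 of 40 signalling relays were called higher and 9 lower, with a median log2 fold change of 0.32. Plcg1, the phospholipase that KDR activates directly, was at 89.8 ± 7.84 CPM in infarcts and 99.1 ± 9.96 in contralateral cortex (log2 −0.14, adjusted p = 0.4). Nfatc1, a calcineurin-dependent transcription factor, rose (log2 3.12, SE 0.24), as did Hspb1, a small heat shock protein that acts on actin (2.89, SE 0.33). Sh2d2a, an adaptor of KDR also known from T cells, had 35 to 54 counts in each infarct library and 1 count in the contralateral libraries together. Prkcb, a protein kinase C, and Ppp3ca, a calcineurin subunit, both abundant in neurons, fell by 2.25 and 2.06 on the log2 scale.

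Of 14 genes of receptor trafficking and dephosphorylation 5 were higher and 1 lower (median 0.59). The higher ones included Ptpn6, a phosphatase of blood cells (log2 4.60), Dab2, an endocytic adaptor (3.69), and Ephb4, a venous ephrin receptor (2.64), while its ligand Efnb2, which marks arteries, fell by 1.25 (adjusted p = 2.57e-04).

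Of 16 genes of VEGF-C and VEGF-D maturation and of lymphatic endothelium 10 were higher and 1 lower (median 2.75). Ccbe1, the cofactor of VEGF-C cleavage, rose from 4.47 ± 0.16 to 67.1 ± 17.3 CPM (log2 3.90, SE 0.24, adjusted p = 7.54e-07), while Adamts3, the protease it assists, fell by 1.51 (9.93 ± 1.83 to 3.47 ± 1.65 CPM, adjusted p = 0.00269). The related proteases Adamts2 and Adamts14 went the other way. Adamts2 rose from 7.33 ± 2.18 to 73.6 ± 4.74 CPM (log2 3.31, adjusted p = 1.45e-06) and Adamts14 from 0.263 ± 0.198 to 2.74 ± 0.565 CPM (3.43, adjusted p = 3.57e-04). Vegfd, the other FLT4 ligand, was at 4.25 ± 1.49 and 3.1 ± 1.47 CPM (log2 0.45, adjusted p = 0.366). Mmrn1, found in lymphatic endothelium and platelets, had 143 to 346 counts in each infarct and 3 counts in the contralateral libraries together. Ccl21a, a lymphatic chemokine with near-identical copies that make its counts uncertain, had 34 to 108 counts in each infarct and 2 in the contralateral libraries together.

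Other members of that list are not specific to lymphatic vessels. Ctsd, a lysosomal protease that can cleave VEGF-C, rose by 4.27 and made up most of the summed level of the list (6607.4 ± 184 CPM in infarcts). Among lymphatic markers, Pdpn, also made by fibroblasts and glia, rose by 3.46 and Lyve1, also made by macrophages, by 2.09, while Prox1, the transcription factor that defines lymphatic endothelium and is also made in the brain, was at 42.9 against 32.2 CPM (log2 0.42, adjusted p = 0.0756). These 3 were named after their values were seen.

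Class 3 semaphorins and plexins, the other partners of neuropilins, had 2 genes called higher and 1 lower of 12 (median 0.04), and 2 lower without contralateral library 1 or without infarct 1, 2 or 3. Sema3b and Sema3d rose by 2.89 and 2.34, and Plxna4 fell by 1.27. Sema3a, the main semaphorin ligand of NRP1, was at 43.1 ± 15.1 CPM in infarcts and 81.4 ± 9.43 in contralateral cortex (log2 −0.92, adjusted p = 0.0111), short of a 2-fold change. Sema3f, the ligand of NRP2, was at 8.18 ± 0.621 against 6.66 ± 1.08 CPM (0.30, adjusted p = 0.236), Sema3c at 45.6 against 52.7 CPM (−0.21, adjusted p = 0.252), and Sema3g at 14.6 against 8.31 CPM (0.81, adjusted p = 0.00305). The co-receptor Plxna1 was at 131 ± 6.73 against 70.8 ± 3.22 CPM (0.88, adjusted p = 2.12e-04), and Plxnd1 at 179 ± 30.1 against 154 ± 15.7 CPM (0.22, adjusted p = 0.266).

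**Figure D5:**
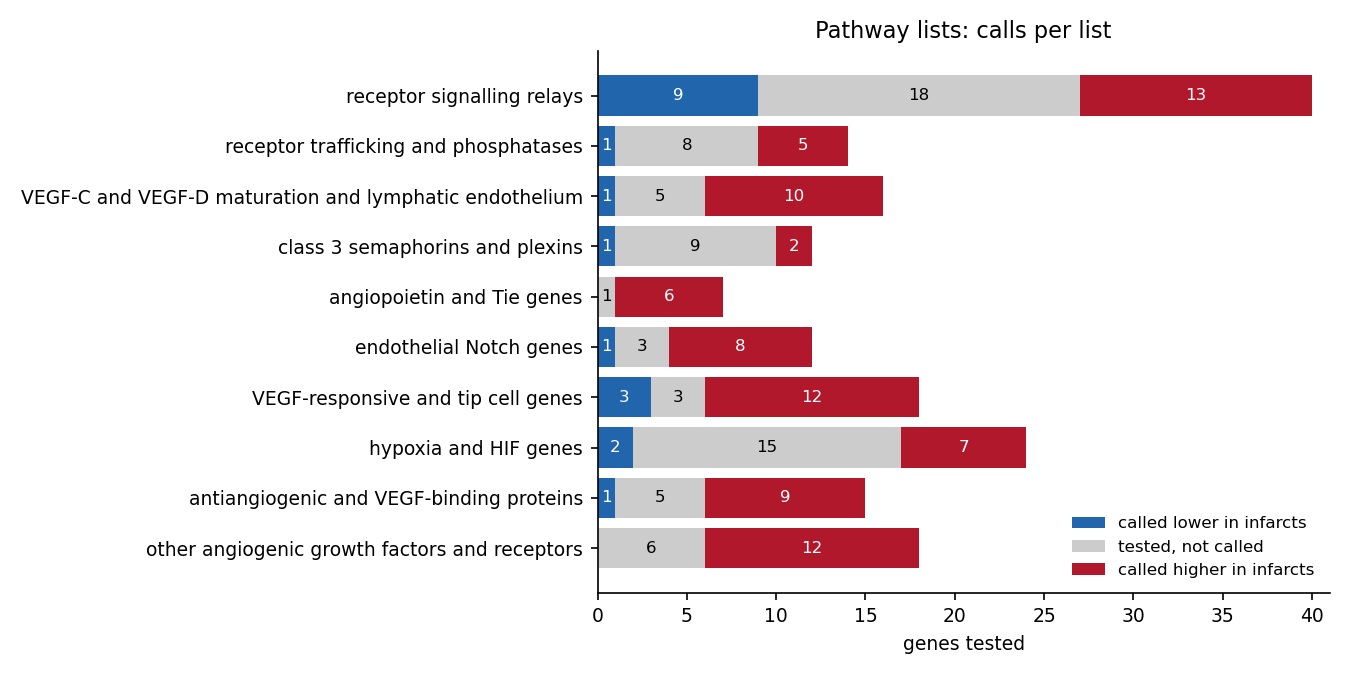
Number of tested genes in each of the 10 pathway lists that were called higher in infarcts (red), called lower (blue) or not called (grey) at an adjusted p below 0.05 and a more than 2-fold change. The angiopoietin and Tie list, which also holds Svep1, Angptl2 and Angptl4, has 6 of 7 genes higher, and the semaphorin and plexin list 2 of 12.

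The list of angiopoietin and Tie genes, the second vascular growth factor system, also held Svep1, Angptl2 and Angptl4, which are not angiopoietins or Tie receptors. Of its 7 tested genes 6 were higher and 0 lower (median 2.55). The receptor Tie1 rose by 1.35. Its relative Tek was at 41.1 ± 4.94 against 28.1 ± 2.57 CPM (log2 0.55, adjusted p = 0.0125), short of a 2-fold change. Angpt2, the ligand that loosens vessel walls, rose from 1.35 ± 0.0413 to 17.8 ± 4.82 CPM (log2 3.71) and Angpt1, the stabilising ligand, by 3.30. The angiopoietin-like gene Angptl4 rose by 3.49. Of the endothelial Notch genes 8 of 12 tested were higher and 1 lower (median 1.30). Dll4, the Notch ligand that VEGF-A induces in tip cells, rose by 1.48 (SE 0.23, adjusted p = 2.93e-04), Mfng by 2.52, Jag1 by 2.39 and Heyl by 2.02, and Jag2 fell by 1.58.

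Genes known to respond to VEGF or to mark tip cells did not move as a block, with 12 of 18 tested higher and 3 lower (median 1.58). Cxcr4 (log2 6.99), Plaur (5.42) and Aplnr (3.84) rose most, and the chemokine receptor Cxcr4 and the urokinase receptor Plaur are also leukocyte genes. Plvap, the diaphragm protein of fenestrated endothelium, rose by 1.83 (9.55 ± 2.49 to 34.2 ± 3.2 CPM). Egr3, Apln and Nr4a1 fell by 3.01, 1.70 and 1.54, and Egr3 and Nr4a1 are also activity-dependent genes of cortical neurons. Esm1, a tip cell gene, was too low to be tested, with 8 to 15 counts in each infarct and 2 to 3 in each contralateral library.

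Of 24 genes of hypoxia and the hypoxia-inducible factors (HIF), the best known inducers of Vegfa, 7 were higher and 2 lower (median 0.29). Hif1a, the inducible subunit, was at 315 ± 43.8 against 175 ± 15.1 CPM (log2 0.85, adjusted p = 0.00101) and Epas1, its endothelial relative, at 364 ± 36.9 against 220.5 ± 16.9 CPM (0.72, adjusted p = 0.00197), both short of a 2-fold change. Car9, a carbonic anhydrase, had 23 to 46 counts in each infarct and 3 in the contralateral libraries together. Hk2, a hexokinase, rose by 2.95 and Adm, a vasodilator peptide, by 2.28, while the mitophagy gene Bnip3 fell by 1.69 and Hif3a by 1.66.

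Of 15 tested antiangiogenic and VEGF-binding proteins 9 were higher and 1 lower (median 2.09), with 2 lower without contralateral library 1 or without infarct 3. Thbs1, the angiogenesis inhibitor thrombospondin, rose from 13.1 ± 2.67 to 185 ± 45.5 CPM (log2 3.82) and Col18a1, the source of endostatin, from 4.33 ± 0.964 to 142 ± 35.9 CPM (5.03). The proteoglycan Dcn rose by 6.43 and Serpinf1, the pigment epithelium-derived factor, by 4.96, and Spry2, an inhibitor of receptor kinase signalling, fell by 1.51. Dcn was also a gene of the fibroblast marker list. Of 18 other angiogenic growth factors and receptors 12 were higher and 0 lower (median 1.94), led by Tgfb1 (4.55), Mdk (2.83) and Pdgfd (2.79).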

How the data were processed

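Gene-level counts were deposited by the authors as 1 table per library. Per the labels and the study's methods, RIN-checked total RNA went into stranded poly(A)-selected libraries, and the authors demultiplexed with bcl2fastq 2.19, trimmed with Trimmomatic 0.32, aligned to GRCm38 with STAR 2.5.2b and counted with htseq-count. The methods name BioMart as the source of gene annotation, and the annotation release, strand setting and HTSeq version are not given in the sources used here. Reads on no gene, on several genes or aligned to several places were kept out of library sizes, so reads shared by near-identical genes are missing.

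Of 46078 identifiers, 45229 were named by GENCODE M21 (GRCm38), and the gene now called Ero1a was matched through a RefSeq synonym. Counts were tested in R 4.3.3 with edgeR 4.0.16 (filterByExpr, TMM, robust quasi-likelihood fit on region, Benjamini-Hochberg over 15554 genes). A call needed an adjusted p below 0.05 and an absolute log2 fold change above 1. Standard errors were derived from the F statistic. CPM values are counts scaled to library size by TMM, and their log2 used a prior count of 0.5. Ratios within libraries and values beside endothelial markers were compared by two-sided exact permutation over libraries (SciPy 1.17.1).

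The 9 genes and the lists were chosen with earlier results of these data known. From each list, the 3 genes with the largest and the 3 with the smallest called log2 fold change were named, together with known partners of the 9 genes, and some genes (such as Adm, Angpt2, Dll4, Cdh5 and Dcn) stand in 2 lists. Some genes that this rule names are not reported here. Alternatives were DESeq2 1.42.0, limma 3.58.1 (voom), other scalings and filters, glmTreat, thinning to 11943570 counts, a replicate block and leaving out each library.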

Additional observations from a re-analysis of the deposited data

How the results depend on the processing

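All 6 genes called higher were called higher under every alternative run except Kdr under glmTreat, a test against the 2-fold threshold (log2 1.23, adjusted p = 0.121). Of 153 results of the 9 genes under the alternatives, 148 kept direction and call. Under glmTreat and with no fold threshold the fold changes were those of the main fit, so only the call could change. Vegfa (−0.80) and Vegfb (−0.70) count as lower with no fold threshold, which makes 2 genes called lower, and Vegfa does so without infarct 2 (−1.14), so that leaving out a library gave 0 to 1 genes called lower. By the adjusted p alone, 0 to 1 genes were lower with a library left out and 0 with library totals as the scale. Library totals moved the median of all genes from 0.03 to 0.23 and turned Flt1 to 0.06, and the cause was not tested beyond this shift. Fold changes with a library left out ran from −1.14 to −0.58 for Vegfa, −0.83 to −0.46 for Vegfb, −0.21 to −0.06 for Flt1 and 1.01 to 1.41 for Kdr. The numbers of calls over all genes, 3999 higher and 3256 lower, were 2789 and 2504 with at least 10 counts in every library, where fewer genes were tested, and 4661 and 3619 with no filter. DESeq2 called 4434 and 3550 and glmTreat 3192 and 2329. All 72 pair ratios under the alternatives moved by less than the spread between replicates, though Vegfa/Vegfb changed sign (−0.67 to 0.27) and Nrp1/Nrp2 ran from 0.27 to 0.65 with a library left out. The replicate block, among these alternatives, cannot change a difference of mean ratios and so repeats the main value. With Pecam1 and Cdh5 alone as the endothelial reference, which rose more than the full list, the differences were −2.72 for Vegfa, −2.62 for Vegfb, 0.77 for Vegfc, 0.92 for Pgf, −2.02 for Flt1, −0.68 for Kdr, 0.51 for Flt4, 1.69 for Nrp1 and 1.18 for Nrp2, and with the summed level of the list Flt1 was at −1.19. With the longest transcript as length, the place of Vegfb was 4, of Vegfc 9, of Pgf 7 and of Flt1 3 in infarcts, and that of Vegfa 4, of Vegfb 2, of Vegfc 8, of Flt4 7 and of Nrp1 1 in contralateral cortex. Of 324 recomputed list counts, 313 stayed within 1.5 times, and the semaphorin and plexin list had 4 genes higher in place of 2 with library totals. The genes lower became 2 in place of 1 in that list with 4 of the 6 libraries left out in turn, in the antiangiogenic list with 2, and among astrocyte markers with 3 and under the replicate block. Same-numbered libraries did not deviate together (r = −0.161, 0.0851 and −0.0112), and not every library correlated best with its own number, so the numbers were not read as pairs. With the replicate number as a block, 3945 genes were higher and 3222 lower, and no call of the 9 genes changed (Vegfa −0.84, Kdr 1.19). The lowest count of any of the 9 genes in a library was 11, so contralateral levels of Vegfc and Pgf are the least precise.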
